A study of Mus musculus with 4 samples.

Results

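The NONMMUG entries of the deposited testis tables are gene identifiers of NONCODE, a database that collects noncoding transcripts, most of them long noncoding RNAs found in cDNA and sequencing collections. They were chosen by identifier and level: the name had to start with NONMMUG, and RPKM (a read count divided by model length and by library total) had to be at least 1 in at least 1 library. Of 46423 such entries among the 112302 listed, 14729 (31.7%) reached that level and made up 34.3% of the 42964 entries of any name that did. A further 28768 lay above 0 but under 1 RPKM in every library, and 2926 were listed at 0 in all 4. Because the level chose them, the values below describe these libraries and carry no test.

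The data were 4 RNA-seq libraries of testis from the BALB/C mouse strain, with 1 library for each of 4 ages, namely the embryonic days E14 and E18 and the postnatal ages of 3 weeks and 6 months. All came from purchased total RNA that was depleted of ribosomal RNA, and the labels disagree on whether polyadenylated RNA was then selected. No treatment or mutation is labelled, and how many animals gave each RNA is not given in the sources used here. The RPKM denominators were between 33952471 reads at 3 weeks and 38903334 at E14, so that 3 reads in a model of 1 kb correspond to between 0.0771 and 0.0884 RPKM. Summed RPKM of 5 elongating spermatid markers (Prm1, Prm2, Tnp1, Tnp2 and Smcp) went from 1.21 at E14 and 1.94 at E18 through 12.1 at 3 weeks to 5867 at 6 months, and that of 6 spermatocyte markers was 1.08, 4.62, 409 and 193. Markers of other organs were present too, with summed RPKM of 5 skeletal muscle genes at 186 and of 5 liver genes at 313 at E14, of 5 kidney tubule genes at 30.4 at E18, and of 5 epididymis genes at 66.9 at 3 weeks.

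Long noncoding RNAs are transcripts without a long open reading frame that can act in the nucleus on chromatin and splicing or in the cytoplasm on RNA and protein partners, although for most of them no function is known. The testis is known for transcribing an unusually large number of them, above all in meiotic spermatocytes and in haploid round spermatids, whose chromatin is open before protamines replace histones. In bulk tissue, fewer cells of a type and less RNA per cell cannot be told apart.

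The deposited tables give no sequence for NONMMUG entries, and the promoters printed here belong to annotated genes whose recovered reads were the same as an entry's in all 4 libraries. They run from 250 bases before to 50 bases after the start in RefSeq's table of GRCm38.p6, the assembly also called mm10, and are shown for 3 annotated long noncoding RNAs, 1 each whose entry stood highest at E14, 3 weeks or 6 months. Xist (chrX:103483184-103483483, minus strand) stands for E14, 4930442J19Rik (chr2:151301789-151302088, plus strand) for 3 weeks and 4930542D17Rik (chr16:50590253-50590552, plus strand) for 6 months. Capitals mark matches on either strand to TGACGT, the core of the cAMP response element that CREM binds in spermatids, to CNGTTA, the core that MYB factors bind, and to TATAAA, the TATA box.
Xist: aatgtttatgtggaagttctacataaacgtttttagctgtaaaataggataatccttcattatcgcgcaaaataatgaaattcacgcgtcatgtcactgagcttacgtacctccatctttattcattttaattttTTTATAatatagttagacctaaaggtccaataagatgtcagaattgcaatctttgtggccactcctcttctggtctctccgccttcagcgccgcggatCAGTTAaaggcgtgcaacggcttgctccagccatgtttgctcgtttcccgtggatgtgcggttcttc
4930442J19Rik: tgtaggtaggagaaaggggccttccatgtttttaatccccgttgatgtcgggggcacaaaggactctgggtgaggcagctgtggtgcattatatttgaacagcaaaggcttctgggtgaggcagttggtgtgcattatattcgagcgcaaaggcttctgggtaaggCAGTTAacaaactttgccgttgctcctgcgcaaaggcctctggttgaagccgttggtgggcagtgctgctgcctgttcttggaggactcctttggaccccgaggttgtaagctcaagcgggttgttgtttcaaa
4930542D17Rik: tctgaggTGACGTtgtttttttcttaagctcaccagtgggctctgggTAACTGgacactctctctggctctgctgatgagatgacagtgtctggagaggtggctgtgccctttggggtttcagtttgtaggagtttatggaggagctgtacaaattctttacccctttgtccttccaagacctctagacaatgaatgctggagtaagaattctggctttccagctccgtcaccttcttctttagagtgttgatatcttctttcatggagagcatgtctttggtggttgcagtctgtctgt
Each of the 3 windows held 1 CNGTTA match, that of Xist also held 1 TATAAA match, and that of 4930542D17Rik also held 1 TGACGT match. These windows were taken from a larger set of matched genes. Windows not printed included those of 1700016P04Rik (highest at 6 months) and Gm26800 (highest at 3 weeks), which held none of these motifs. Those of 1700120K04Rik and Gm16325 (both highest at 6 months) held 1 CNGTTA match each and neither of the others. Among all 32851 promoters of the table, 23.3% held CNGTTA, 13.6% TATAAA and 7.51% TGACGT. Of 97 promoters (87 genes) whose entries were highest at 6 months, 23.7% held CNGTTA, 11.3% TATAAA and 7.22% TGACGT. Of the 48 promoters (43 genes) among them whose entries led by 2-fold or more, 31.2% held CNGTTA, 16.7% TATAAA and 8.33% TGACGT. Among the 55 promoters (44 genes) of 3 weeks the shares were 25.5%, 12.7% and 10.9%. Among the 27 promoters of E18 they were 7.41%, 11.1% and 3.70%, and among the 14 of E14 21.4%, 21.4% and 14.3%. TGACGT also lies inside the full element TGACGTCA, which 2 of the 97 and 2 of the 55 promoters held.

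The label "long noncoding RNA" did not hold for all entries. Of 11465 NONMMUG entries with at least 50 reads in their highest library, 853 (7.44%) had exactly the reads of a separately named entry in all 4 libraries and a gene model within 5% of its length, 672 of them within 2 bases. That comparison was chosen after the values were seen. By the type of the named gene in GENCODE vM21, 348 of the 853 shared the reads of a long noncoding RNA, 270 those of a pseudogene, 25 those of a protein-coding gene and 24 those of a small or structural RNA, while 184 matched a name without a type there and 2 matched names of several types. The gene models of the 14729 entries had a median of 998 bases (range 15 to 85341), and 135 were under 200 bases, the usual lower bound for a long noncoding RNA. The remaining 10612 entries with at least 50 reads had no such match.

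Of the 40 most abundant entries, 14 had the reads of a named entry of like length, among them structural RNAs that every cell holds. The 20 most abundant held 84.3% of all NONMMUG reads at E14, 82.5% at E18, then 72.0% at 3 weeks and 76.9% at 6 months. All NONMMUG entries together held between 30.6% and 36.5% of the RPKM denominator, with a read in overlapping entries counted in each. NONMMUG043413 had the reads of Rn7sk, the 7SK RNA that holds the elongation factor P-TEFb inactive, with 38627 RPKM at E14, 47612 at E18, then 21782 at 3 weeks and 33379 at 6 months. Its 3-week library was the lowest and stood 2.19-fold under E18 (from 541047 against 245534 reads). NONMMUG044353 had the reads of mt-Rnr1, the 12S ribosomal RNA of mitochondria, with 15175, 22876, 44966 and 15458 RPKM in the same order, and was highest at 3 weeks. NONMMUG018330 had the reads of Rn45s, the precursor of cytoplasmic ribosomal RNA, with 8232, 6222, 4156 and 6467 RPKM. This RNA was again lowest at 3 weeks, by 1.497-fold against E18.

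NONMMUG012896 had the reads of Rpph1, the RNA of RNase P, which trims the 5′ ends of transfer RNAs, with 6588, 7655, 3444 and 2747 RPKM at E14, E18, 3 weeks and 6 months. NONMMUG029036 had the reads of Rmrp, the RNA of the related RNase MRP of ribosomal RNA processing, with 6532, 6599, 1588 and 1593 RPKM. Both were lower in each postnatal library than in each fetal one, Rmrp by 4.15-fold from E18 to 3 weeks. After rescaling over ribosomal protein genes the RPKM of NONMMUG012896 were 4563, 4704, 4555 and 4880, with no such difference, while those of NONMMUG029036, at 4523, 4055, 2101 and 2831, were still lower after birth. On that scale 7SK (26751, 29256, 28810 and 59302) and Rn45s (5701, 3823, 5496 and 11490) were not lowest at 3 weeks, and mt-Rnr1 (10510, 14057, 59473 and 27463) was still highest there. Rescaling by the median of ratios instead left NONMMUG012896 (7185, 7359, 2629 and 3389) and NONMMUG029036 (7124, 6344, 1212 and 1966) lower after birth. By that scaling 7SK (42130, 45772, 16624 and 41185) and Rn45s (8978, 5982, 3171 and 7980) stayed lowest at 3 weeks. There mt-Rnr1 stayed highest at 3 weeks, at 34317. NONMMUG016749, the highest entry at E14, E18 and 6 months (63379, 50308 and 43465 RPKM, and 18945 at 3 weeks), NONMMUG009163 (46591, 44678, 15343 and 29936 RPKM) and NONMMUG026007 (46365, 38065, 15560 and 34930 RPKM) shared their reads with no named entry of like length. NONMMUG044354, a model of 2609 bases, was highest at 3 weeks, with 12270, 18060, 27524 and 10791 RPKM. Its number directly follows NONMMUG044353, the entry with the reads of mt-Rnr1, which was also highest at 3 weeks. Whether it is a ribosomal RNA of mitochondria was not tested. What RNA the other unmatched entries are is not known from the tables.

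Several further entries shared reads with relatives of 7SK. Gm24447, Gm26315, Gm26035, Gm24146, Gm23973 and Gm24139 had between 85.1% and 89.1% identity to Rn7sk over the length of the shorter RNA of each pair. Of the 24 entries with the reads of a small or structural RNA, 12 were at least 2-fold lower at 3 weeks than at E18 and 3 were higher, counts that became 13 and 3 after rescaling by the median of ratios and 4 lower against 6 higher after rescaling over 77 ribosomal protein genes. How many of these RNAs were lower or higher past 2-fold at 3 weeks therefore rests on the scaling. Over all entries, 10.5% were lower and 32% higher at 3 weeks than at E18 in RPKM as deposited. Shares of all entries after rescaling were not counted.

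RPKM of at least 1 was reached by 7248 NONMMUG entries at E14, 7883 at E18, then 10949 at 3 weeks and 9035 at 6 months. The number at 0 was lower in each older library, at 1384 at E14 and 1076 at E18, then 228 at 3 weeks and 136 at 6 months. Levels were low: the median over the 14729 entries was 0.971 RPKM at E14, 1.10 at E18, then 1.70 at 3 weeks and 1.36 at 6 months. At least 10 RPKM was reached by 592, 678, 1231 and 1159 entries, and at least 100 RPKM by 73, 78, 61 and 79. All 4 libraries reached 1 RPKM for 4282 entries (29.1%) and just 1 library for 4740 (32.2%). Of the latter, 2257 were at 3 weeks, 1665 at 6 months, 488 at E18 and 330 at E14, while 2307 entries reached it in both postnatal libraries alone and 1046 in both fetal ones alone. An entry that reached 1 RPKM in just 1 library was chosen through that library. The counts of this paragraph were not made over all entries, so they show no trait particular to NONMMUG entries.

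More entries were highest at 3 weeks than in any other library. The 3-week library held the highest RPKM for 6551 entries (44.5%), 6 months for 3817 (25.9%), E18 for 2628 (17.8%) and E14 for 1733 (11.8%). Over all 42964 entries the shares were 43.9%, 24.4%, 18.9% and 12.8%. That total includes the NONMMUG entries themselves and 4141 DQ identifiers, of which 89.3% were highest at 3 weeks, so the likeness depends on this mix. Of 12660 protein-coding symbols, 35.4% were highest at 3 weeks, 25.6% at 6 months, 24.8% at E18 and 14.3% at E14. Symbols annotated as long noncoding RNA in GENCODE had another order, with 46.5% of 1440 highest at 6 months and 32.2% at 3 weeks. By the median of ratios the order of the 2 postnatal libraries turned, with 42.0% of NONMMUG entries highest at 6 months and 23.8% at 3 weeks. Over ribosomal protein genes they came closer, at 42.6% and 47.8%. The annotated long noncoding RNAs had a larger share at 6 months than the NONMMUG entries under both, at 63.1% and 63.5%.

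**Figure D1:**
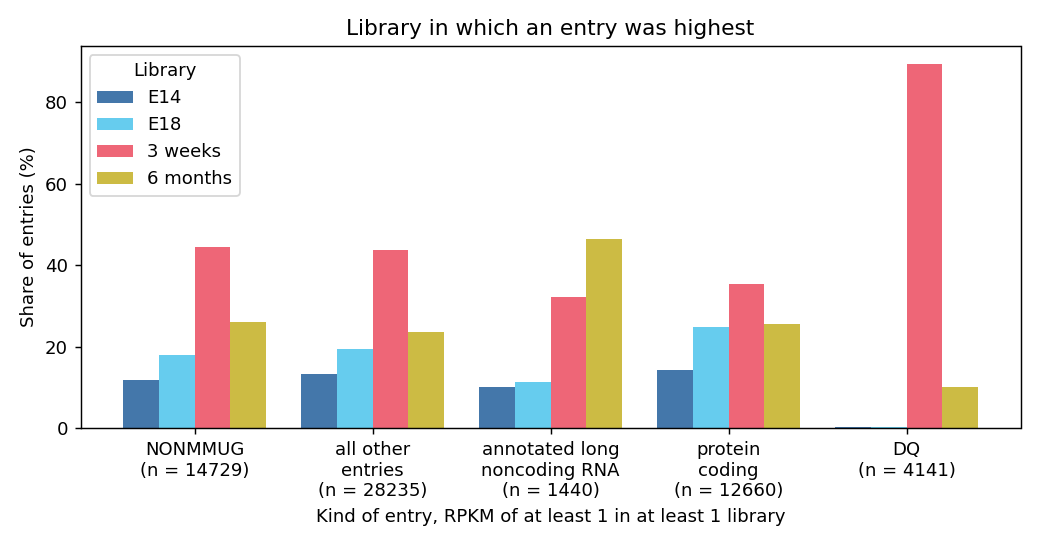
Share of entries (vertical axis, %) whose highest RPKM lay in each of the 4 libraries (bars, 1 library per stage), for NONMMUG entries, all other entries, symbols annotated as long noncoding RNA, protein-coding symbols and DQ identifiers, each with RPKM of at least 1 in at least 1 library. In RPKM as deposited, 44.5% of NONMMUG entries were highest at 3 weeks. The share was 43.6% for all other entries, which include the DQ entries with 89.3%, and 35.4% for protein-coding symbols. Of annotated long noncoding RNAs, 46.5% were highest at 6 months. By the median of ratios 23.8% of NONMMUG entries were highest at 3 weeks.

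Entries of different kinds were highest in different libraries. Of the 348 entries with the reads of an annotated long noncoding RNA, 138 (39.7%) were highest at 6 months, 102 at 3 weeks, 59 at E18 and 49 at E14. Among the 270 with the reads of a pseudogene, 45 (16.7%) were highest at 6 months, 96 at 3 weeks, 82 at E18 and 47 at E14. None of the 24 with the reads of a small or structural RNA was highest at 6 months, against 12 at E18. The 10612 without such a match were highest at 3 weeks in 47.4% of cases and at 6 months in 24.3%. Rescaling over ribosomal protein genes put 12 of the 24 structural RNAs, 108 of the pseudogene set and 194 of the long noncoding set at 6 months, and the median of ratios 0, 80 and 183. The gene models of the pseudogene set were short (median 446.5 bases, against 1423 in the long noncoding set), and their reads may be shared with the parent genes.

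**Figure D2:**
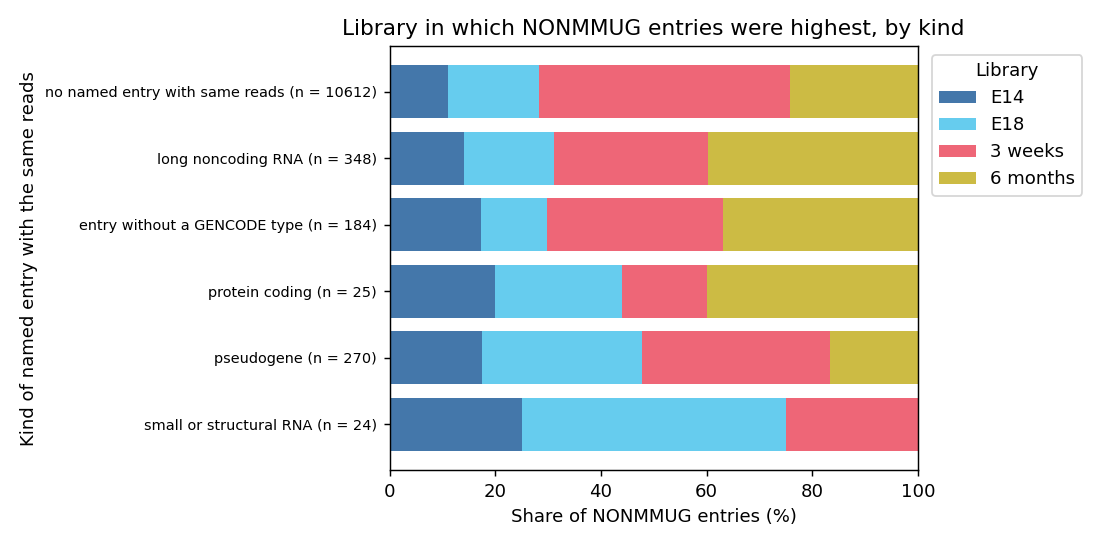
Share of NONMMUG entries with at least 50 reads (horizontal axis, %) that were highest in each of the 4 libraries, by the kind of the named entry with the same reads, in RPKM as deposited. The 6-month share is 39.7% in the set of long noncoding RNAs, 16.7% in that of pseudogenes and 0 in that of small or structural RNAs, where rescaling over ribosomal protein genes puts 12 of 24 at 6 months.

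Entries highest at 6 months stood out most clearly from their other libraries. Lead means the highest log2(RPKM + 1) minus the next highest, and it was at least 1, which is 2-fold on that scale, for 36.9% of the entries highest at 6 months, 11.0% of those at 3 weeks, 4.6% at E14 and 3.5% at E18. Leads of 2-fold were not counted over all entries. A lead of at least 4-fold was held by 438 entries (2.97%): 385 at 6 months, 32 at 3 weeks, 16 at E14 and 5 at E18. These were 2.61%, 0.217%, 0.109% and 0.0339% of the NONMMUG entries, beside 2.92%, 1.59%, 0.158% and 0.0675% of all entries. Large leads at 6 months were therefore no more frequent among NONMMUG entries than in the whole table. The 3-week share was thus the one farthest under that of the whole table, which includes 4141 DQ identifiers of which 89.3% were highest at 3 weeks. At the other end, 5467 entries (37.1%, beside 31% of all) varied less than 2-fold on log2(RPKM + 1) over all 4 libraries. That scale understates low levels, so entries near the minimum can count here with larger differences in RPKM. NONMMUG012203, for instance, lay at 0.0511 RPKM at E14 and at 1.00 at 6 months. The median highest RPKM was 2.67 over NONMMUG entries and 3.76 over all entries.

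**Figure D3:**
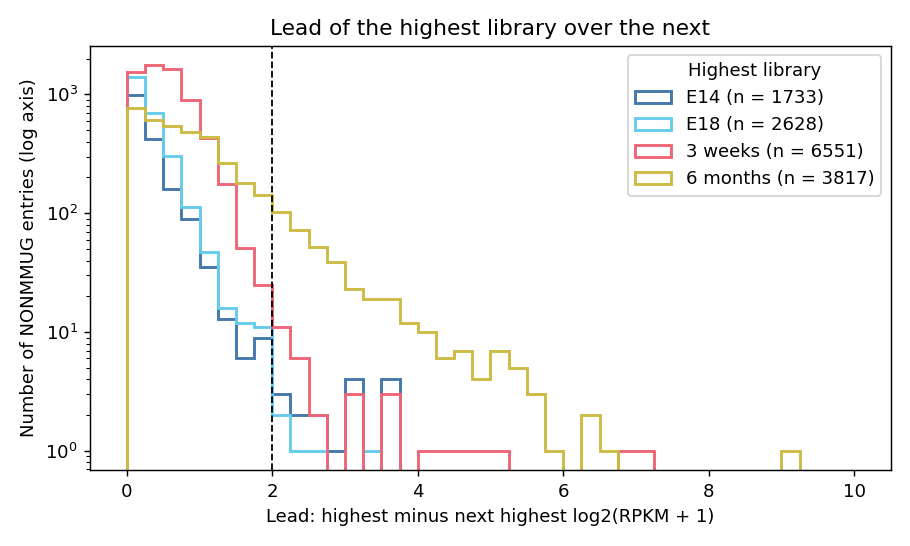
Number of NONMMUG entries (vertical log axis) by the lead of the highest library over the next (horizontal axis, difference in log2(RPKM + 1)), with 1 outline for each highest library and a dashed line at a lead of 2, which is 4-fold. Beyond the line lie 385 entries highest at 6 months and 32 highest at 3 weeks, with 16 at E14 and 5 at E18.

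Few entries differed between the fetal libraries. The E18 level of 238 NONMMUG entries (1.62%) was at least 2-fold above that of E14, beside 2.17% of all entries, and 98 (0.665%) were lower, beside 1.34% of all. Their median log2 difference was 0.05, and that of all entries 0.03. Higher entries made up 70.8% of those past 2-fold, 53.9% by the median of ratios and 58.8% over ribosomal protein genes. The largest differences upward were those of NONMMUG026167, NONMMUG021528 and NONMMUG038757. NONMMUG038757 had 0.340 RPKM at E14, 14.1 at E18, then 1.40 at 3 weeks and 1.11 at 6 months, and its E18 level was 41.4-fold that of E14 with a 95% counting interval of 17.4 to 129, from 5 and 182 reads. It was high in the E18 library alone. NONMMUG021528 had 0.754, 24.6, 11.1 and 77.2 RPKM in the same order, a 32.7-fold difference between the fetal libraries (18 to 66.1), and was highest at 6 months. NONMMUG042685 had the reads of Gm10680, annotated as an antisense transcript at chr9:46242621-46243529 on the minus strand, with 0.0367 RPKM at E14 (1 read), 9.27 at E18 (222 reads) and 0 in both postnatal libraries. NONMMUG042671, with a number close to it, had 32.7, 161, 7.59 and 2.81 RPKM, was highest at E18 too and was 4.94-fold higher there than at E14 (4.74 to 5.14).

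The entries that were higher at E14 included Xist, the RNA that coats the inactive X chromosome in female cells. NONMMUG045569 had the reads and the length of 17918 bases of Xist (chrX:103460366-103483254, minus strand), with 12.7 RPKM at E14, 0.124 at E18, then 0.158 at 3 weeks and 0.0312 at 6 months. From 8875 reads at E14 and 76 at E18, the E14 level was 103-fold higher. The neighbouring numbers NONMMUG045568 and NONMMUG045570 were also highest at E14, and the 3 entries lay between 5.38 and 12.7 RPKM there and at most at 0.158 elsewhere. NONMMUG039350 had 196, 14.9, 0.416 and 0.691 RPKM at E14, E18, 3 weeks and 6 months, 13.2-fold lower at E18 than at E14. NONMMUG015395 had 13.1, 0.208, 0.0698 and 0.0662 RPKM, 62.9-fold lower at E18, with 6 reads there. NONMMUG045569 and NONMMUG015395 were thus high at E14 alone, and NONMMUG039350 in both fetal libraries. At E14 the summed RPKM of 5 cartilage genes was 74.8, against 0.658 at E18, and that of 5 neuron genes 47.3, against 7.86. The part of such tissue in these entries was not tested.

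The step from E18 to 3 weeks was the widest. At 3 weeks 3653 entries (24.8%) were at least 2-fold higher than at E18, beside 32% of all entries, and 1252 (8.5%) were lower, beside 10.5% of all. The median log2 difference was 0.41, against 0.46 over all entries. Higher entries were 74.5% of those past 2-fold, 61.8% by the median of ratios and 95.9% over ribosomal protein genes, scalings that moved the median of all entries by -0.20 and 0.58. Both postnatal libraries stood at least 2-fold above both fetal ones for 1903 entries (12.9%, beside 22% of all), and both fetal above both postnatal for 703 (4.77%, beside 5.97%). The shares of all entries in this paragraph include 4141 DQ identifiers, of which 89.3% were highest at 3 weeks. Shares without them were not counted, so a lower NONMMUG share may come from this mix. In these libraries the summed spermatocyte markers were 4.62 RPKM at E18 and 409 at 3 weeks, and those of 5 bladder genes 48.8 and 1.03. The part of either in the entries' differences was not tested.

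NONMMUG043533, with the reads of a small structural RNA, had 12.6 RPKM at E14, 6.74 at E18, then 3283 at 3 weeks and 20.9 at 6 months. The 3-week level was 487-fold that of E18 (95% counting interval 385 to 626, from 69 and 33331 reads) and 157-fold that of 6 months. It was thus high in the 3-week library alone, where it was among the 40 most abundant NONMMUG entries. Summed RPKM of 5 epididymis genes had the same highest library, at 0.0603, 2.97, 66.9 and 0.758, and the part of that tissue in the 3-week entries was not tested. NONMMUG000469, with the reads of the small nucleolar RNA gene Gm24826, had 0.360, 0, 50.2 and 0.392 RPKM and was likewise high at 3 weeks alone.

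A pair of entries shared reads with relatives of RNase P RNA. NONMMUG039758 had the reads of Rprl3 and NONMMUG026167 those of Rprl2, but with models of 620 and 723 bases against the 290 bases annotated for each RNA. The annotated RNAs were 86.2% (Rprl3) and 85.9% (Rprl2) identical to Rpph1, so the reads may be shared among them. NONMMUG039758 had 14.01 RPKM at E14, 123 at E18, then 1551 at 3 weeks and 5.41 at 6 months. NONMMUG026167 had 1.71, 58.0, 204 and 1.27 RPKM. Both were higher at E18 than at E14, highest at 3 weeks, and lower at 6 months than at 3 weeks by 287-fold and 160-fold. Rpph1 itself, through NONMMUG012896, was 2.22-fold lower at 3 weeks than at E18 in RPKM as deposited.

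Other entries that were higher at 3 weeks shared reads with no named entry of like length. NONMMUG044239 had 1 read at E14, 0 at E18, then 1167 at 3 weeks and 4 at 6 months, which is 0.161, 0, 215 and 0.698 RPKM. It was at least 392-fold higher at 3 weeks than at E18, taking 3 reads as the floor of that library, and the lower bound of the 95% counting interval was 318-fold. NONMMUG006572 had 0.875, 1.17, 308 and 456 RPKM and was high in both postnatal libraries. Its 3-week level was 264-fold that of E18 (181 to 400), and its 6-month level 1.48-fold that of 3 weeks.

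Among the entries with the reads of annotated long noncoding RNAs, those highest at 3 weeks had leads under 4-fold. NONMMUG025069, with the reads of 4930442J19Rik, had 0, 0.116, 20.1 and 10.4 RPKM at E14, E18, 3 weeks and 6 months. NONMMUG027322, with those of 4930477E14Rik (chr3:96401150-96402014), had 0, 0.0452, 7.28 and 1.12 RPKM. NONMMUG016744, with those of Gm26800 (chr16:57280890-57281496), had 0, 0.168, 5.35 and 1.53 RPKM. All 3 were near 0 in the fetal libraries and present in both postnatal ones. Of the 32 entries with a 4-fold lead at 3 weeks, 4 shared the reads of a named entry of like length. None shared those of an annotated long noncoding RNA. Such a match was rare in the whole set, at 348 of 14729 entries, so its absence among 32 says little.

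The fetal entries that were lower at 3 weeks included H19, an imprinted RNA expressed from the maternal chromosome and abundant in fetal tissues. NONMMUG039673 had the reads of H19 (chr7:142575529-142578143, minus strand), with 196 RPKM at E14, 101 at E18, then 1.15 at 3 weeks and 0.0961 at 6 months. The E18 level was 88.3-fold that of 3 weeks, from 9076 and 102 reads, and each older library was under the one before it. NONMMUG039676, with the reads of Igf2os, an antisense transcript of the neighbouring imprinted growth factor gene Igf2 (chr7:142659693-142670356, plus strand), followed the same order at 2.96, 0.756, 0.0608 and 0.0367 RPKM. NONMMUG034872 had 118, 60.5, 0.355 and 0.202 RPKM, 171-fold lower at 3 weeks than at E18, with 5 reads at 3 weeks. NONMMUG005700 had 2322, 1835, 36.0 and 69.6 RPKM, 50.9-fold lower. In all 4, both postnatal values were under both fetal ones.

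A small group was low at 3 weeks and higher again at 6 months. NONMMUG034407, with the reads of the small RNA gene Gm24105, had 2260, 1753, 53.6 and 744 RPKM at E14, E18, 3 weeks and 6 months, 32.7-fold lower at 3 weeks than at E18 and then 13.9-fold higher at 6 months. NONMMUG030510, with the reads of Gm12896, had 197, 145, 20.2 and 124 RPKM, a 7.18-fold and then a 6.15-fold difference. Among all NONMMUG entries, 59 were at least 2-fold lower at 3 weeks than at E18 and at least 2-fold higher again at 6 months, whereas 747 were higher and then lower, 253 higher at both steps and 75 lower at both. These were 0.401%, 5.07%, 1.72% and 0.509% of the NONMMUG entries, beside 0.668%, 9.3%, 2.23% and 0.505% of all entries. All entries here include the DQ identifiers, most of which were highest at 3 weeks, and shares without them were not counted.

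**Figure D4:**
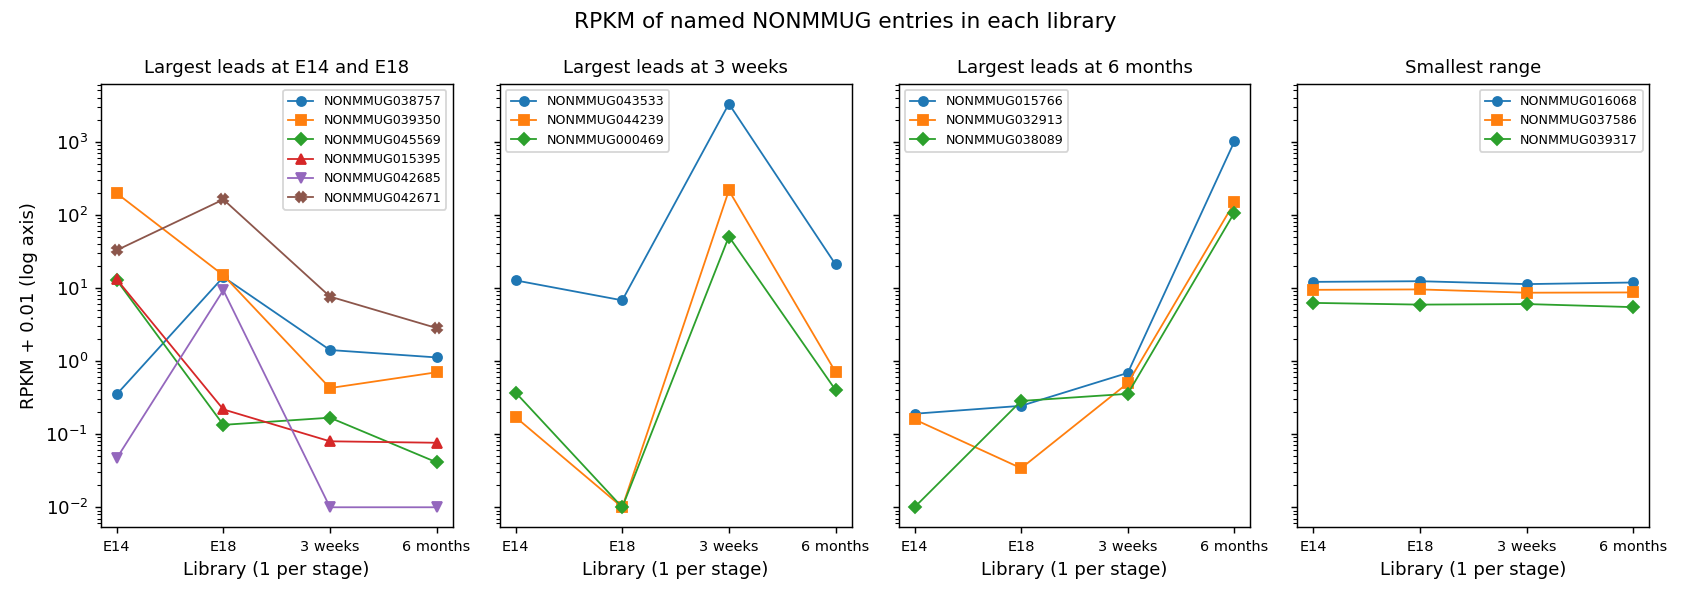
RPKM (plus 0.01, log axis) of NONMMUG entries in each of the 4 libraries (horizontal axis, 1 library per stage) for the 3 largest leads at each stage and the 3 smallest ranges, each line 1 entry. The lines peak in 1 library by more than a factor of 4, as in NONMMUG015766 at 6 months, while the 3 entries of the last panel stay between 5.44 and 12.3 RPKM.

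Between 3 weeks and 6 months, like numbers of entries were higher and lower at the 2-fold limit. At 6 months 1561 entries (10.6%) were at least 2-fold higher than at 3 weeks, beside 9.73% of all entries. Another 1535 (10.4%) were lower, beside 14.1% of all entries, DQ identifiers included. The median log2 difference was -0.33, against -0.31 over all entries. Higher entries were 50.4% of those past 2-fold, 91.1% by the median of ratios and 74.2% over ribosomal protein genes, scalings that moved the median of all entries by 0.38 and 0.23. In RPKM as deposited they were 89.1% at a limit of 4-fold (424 higher and 52 lower) and 31.6% with a pseudocount of 0.1 (2339 and 5059), so the even split belongs to the 2-fold limit with a pseudocount of 1. Spermatid markers stood beside this step with summed RPKM of 91.1 and 483 for round spermatids and of 12.1 and 5867 for elongating ones, and 5 Leydig cell genes with 64.0 and 552. What share of the entries' differences went with these cells was not tested.

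**Figure D5:**
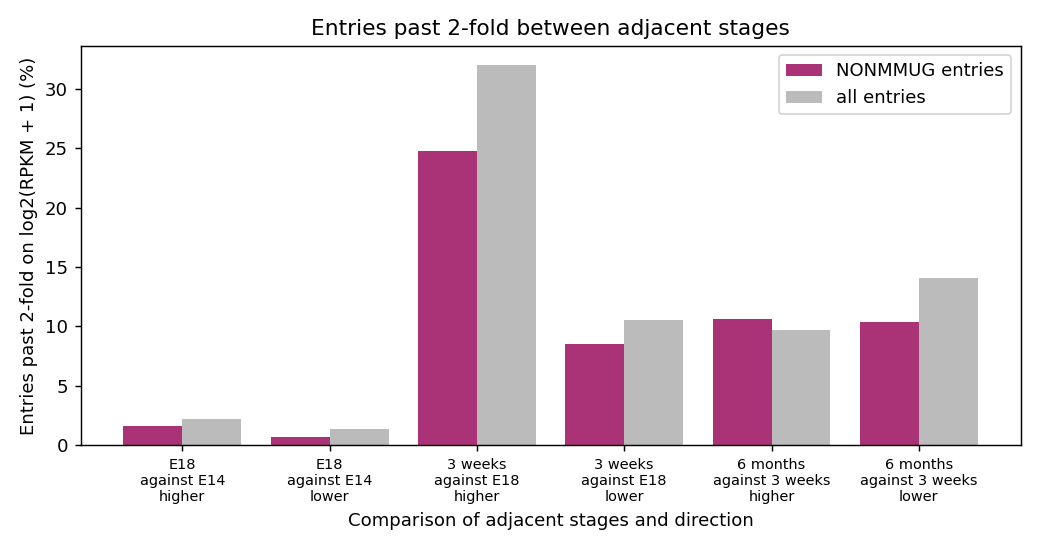
Share of entries (vertical axis, %) at least 2-fold higher or lower on log2(RPKM + 1) in each of the 3 comparisons of adjacent stages, for NONMMUG entries (coloured bars) and all entries (grey bars). The NONMMUG share lies under that of all entries in 5 of the 6 pairs of bars and above it, at 10.6% against 9.73%, for entries higher at 6 months than at 3 weeks. All entries include 4141 DQ identifiers, of which 89.3% were highest at 3 weeks.

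NONMMUG015766, a model of 1000 bases, had the largest lead of all NONMMUG entries. Its RPKM was 0.180 at E14, 0.234 at E18, then 0.677 at 3 weeks and 1006 at 6 months, from 7, 8, 23 and 36008 reads. The 6-month level was 1485-fold that of 3 weeks, with a 95% counting interval of 989 to 2342. It shared its reads with no named entry of like length and was the single one of the 40 most abundant NONMMUG entries that was highest at 6 months. NONMMUG032913 had 0.149, 0.0242, 0.488 and 147 RPKM, 302-fold higher at 6 months than at 3 weeks. NONMMUG038089 had 0, 0.274, 0.346 and 107 RPKM, 309-fold higher, and the reads of 1700015G11Rik in a model of another length. All 3 were under 1 RPKM in each of the younger libraries.

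Annotated long noncoding RNAs were among the entries of the 6-month library. Of the 385 entries with a 4-fold lead there, 46 shared the reads of a named entry of like length, and 25 of these were annotated long noncoding RNAs. Their levels were moderate, with a median of 10.7 RPKM over the 385 (range 3.17 to 1006), and 27 of the 385 had 0 reads in the other 3 libraries. NONMMUG034628, with the reads of 1700016P04Rik (chr6:13413337-13415996, plus strand), had 0, 0, 0.0672 and 47.0 RPKM, the 3-week value from a single read. NONMMUG036496, with those of the antisense transcript Gm15856 (chr6:121223692-121226153, minus strand), had 0.0886, 0.0504, 0.0762 and 23.5 RPKM. NONMMUG028199, with those of Gm16325 (chr3:146641932-146651715, plus strand), had 0.00797, 0.00906, 0.557 and 28.9 RPKM. These 3 were near 0 until 3 weeks. NONMMUG016680, with the reads of 4930542D17Rik, whose promoter is printed above, had 0.0377, 0.0429, 1.56 and 18.6 RPKM, and NONMMUG039368, with those of 1700120K04Rik (chr7:127603900-127604445, minus strand), had 0.0473, 0, 0.434 and 18.2 RPKM. In both, the 3-week library lay between the fetal ones and 6 months.

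Some of the strongest 6-month entries were not noncoding in GENCODE. NONMMUG038042 had the reads of Gm9999 (chr7:46983580-46987803, plus strand) and NONMMUG006611 those of 4930544D05Rik (chr11:70615848-70616890, plus strand), both annotated as protein coding. NONMMUG038042 had 0.0680, 0.0773, 1.99 and 102 RPKM at E14, E18, 3 weeks and 6 months. NONMMUG006611 had 0.0596, 0, 0.205 and 38.8 RPKM. Both were under 2 RPKM in each younger library. Entries matched to overlapping or antisense annotations are uncertain throughout, since no source says whether reads were counted by strand.

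In RPKM as deposited, well-known long noncoding RNAs of many tissues were mostly highest before birth. Of 38 on a list, 30 were in the tables and 25 reached 1 RPKM, of which 16 were highest at E14, 3 at E18, then 6 at 3 weeks and 0 at 6 months. None was at least 2-fold higher at a later stage than at the one before, whereas 1 was lower at E18 than at E14, 7 lower at 3 weeks than at E18 and 4 lower at 6 months than at 3 weeks. The shares of all entries lower at these steps were 1.34%, 10.5% and 14.1%, and of those higher 2.17%, 32% and 9.73%. By the median of ratios 18 of the 25 were highest at E14, 3 at E18, then 3 at 3 weeks and 1 at 6 months. Over ribosomal protein genes 4 were higher and 4 lower at 3 weeks than at E18. There 10 of the 25 were highest at E14, 1 at E18, then 9 at 3 weeks and 5 at 6 months. The majority before birth was thus kept by the median of ratios and lost over ribosomal protein genes. Several of the list had the reads of a NONMMUG entry. Of these, NONMMUG033401, with the reads of Miat, an RNA of nuclear bodies in neurons, had 1.36 at E14, 0.139 at E18, then 0.368 at 3 weeks and 0.343 RPKM at 6 months. NONMMUG041781, with the reads of Fendrr, which lies beside the mesoderm factor gene Foxf1, had 1.09, 0.37, 0.08 and 0.0337 RPKM. NONMMUG013779, with the reads of Mir17hg, the host transcript of the miR-17 cluster, had 1.69, 2.36, 4.17 and 1.44 RPKM. Miat and Fendrr were highest at E14 and Mir17hg at 3 weeks. NONMMUG025262, which had the reads of 2900097C17Rik, the mouse NORAD RNA that binds Pumilio proteins, had 8.30, 8.46, 6.70 and 3.26 RPKM and was lowest at 6 months.

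The most even entries with at least 5 RPKM in every library were NONMMUG016068, NONMMUG037586 and NONMMUG039317. NONMMUG016068 had 12.1 RPKM at E14, 12.3 at E18, then 11.2 at 3 weeks and 11.8 at 6 months. They were chosen for their small range, so its size is a description.

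At the minimum of 1 RPKM the choice of entries turned on few reads. NONMMUG012203, which had the reads of Gm16542, and NONMMUG036416 lay just inside, with 1.00 RPKM each at 6 months from 54 and 35 reads. NONMMUG046140 (0.99985 RPKM at E18, 268 reads) and NONMMUG038399 (0.9998 RPKM at 3 weeks, 85 reads) lay just outside. The counting intervals of all 4 held 1 RPKM. Over the whole set the median entry had 118 reads in its highest library, and 683 entries had under 20.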

How the data were processed

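RPKM in 4 testis libraries, 1 per stage, were deposited by the authors for 112302 entries. Per the submitters' processing notes, TopHat2 and mm10 were used. The sources used here do not give the counter, the annotation or the treatment of strand and multiply mapped reads. Denominators were recovered from the RPKM steps of single-exon GENCODE vM21 genes, and whole reads with 1 model length for 98242 of 98242 entries above 0 (relative tolerance 1e-09, lengths up to 200000 bases). A common factor of these reads may be lost. Intervals (95%, exact Poisson for levels, Clopper-Pearson for ratios) and floors of 3 reads cover counting error only.

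Differences are on log2(RPKM + 1), a pseudocount of 1 that understates low levels, and were counted at 2-fold (leads at 4-fold) among entries with at least 1 RPKM in at least 1 library. With 1 library per stage there is no replicate check and no p-value. Entries named were the 3 highest per library, the 3 largest differences each way and leads per stage with at least 5 RPKM, the 3 smallest ranges, the 2 nearest the minimum on each side, and the 2 largest up-and-down and down-and-up patterns. Those named beside an annotated RNA, and the motifs, were chosen after their values were seen. The entries and gene lists were chosen with earlier results of these data known. Alternatives were other minimums, pseudocounts, size limits and scalings, merging identical entries, a minimum of 20 reads and leaving out E14. The procedure was tested on simulated data with Python 3.11.15, pandas 2.3.3, SciPy 1.17.1 and Biopython 1.88 (alignments). The sequence of 1 structural RNA is not reported here.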

Additional observations from a re-analysis of the deposited data

How the results depend on the processing

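No entries had identical RPKM in all 4 libraries, so merging such entries left 14729 and could not move any count. Entries that share reads but differ in model length were not merged. Asking for 20 reads kept all 17 counts within 1.5 times. With a minimum RPKM of 5, 4095 entries remained. By age, 444, 722, 1629 and 1300 of them were highest. Higher and lower were 133 and 40 at E18, 1775 and 658 at 3 weeks and 665 and 801 at 6 months, with 1214 postnatal above fetal and 428 the other way. With no minimum, 43497 entries gave 7094, 8796, 18674 and 8933 highest. By the median of ratios, 2770 were highest at E14, 3401 at 3 weeks and 6009 at 6 months. On that scale 2691 were higher and 263 lower at 6 months, and leads were 14 at 3 weeks and 598 at 6 months. Over ribosomal protein genes, 955 were highest at E14, 646 at E18 and 7104 at 6 months. There 117 were higher at E18, 7314 higher and 315 lower at 3 weeks, and 2824 higher and 982 lower at 6 months, with leads of 2 at E18 and 759 at 6 months and a fetal split of 4345 and 155. A pseudocount of 0.1 gave 999 and 463 at E18, 6444 and 2330 at 3 weeks, 5059 lower at 6 months, leads of 69, 35, 180 and 1157, and a split of 3914 and 1488. At 4-fold there were 23 and 20, 943 and 198, and 424 and 52, with a split of 554 and 92. Leads of 2-fold numbered 79, 91, 719 and 1408. Ranking without E14 put 4085 highest at E18. A minimum applied without E14, chosen after seeing the data, left 37 lower at E18. The cause of these shifts was not tested. Of 47 differences of named entries past 2-fold, none turned its direction in 141 values under alternatives. Most of these entries were chosen for large differences or levels, so a turn was unlikely from the start. Sizes did change. Over ribosomal protein genes the log2 difference from E18 to 3 weeks went from -1.13 to -0.022 in NONMMUG043413 and from -1.15 to -0.046 in NONMMUG012896. No paired analysis was possible because each stage has 1 library, and for the same reason no library could be left out of a group. Depth limits entries under 20 reads.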

Other observations

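NONMMUG numbers followed the genome, a pattern looked for after the data were seen. Of 647 entries with the reads of a gene at 1 annotated position, 646 neighbouring pairs by number could be formed, and 624 (96.6%) lay on the same chromosome. In 618 of the 624 (99.0%) the later number had the higher start. Entries with consecutive numbers therefore tend to be neighbours, and some may overlap and count the same reads.

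Of 7263 pairs of entries with consecutive numbers, 4261 (58.7%) were highest in the same library, against 31.1% of all pairs of entries. In 36 consecutive pairs both entries had a 4-fold lead, and all 36 shared the library. They formed 33 runs of 2 or 3 entries, 28 of them at 6 months. Of the 438 entries with such a lead, 385 were highest at 6 months, so a shared library and runs at 6 months were likely from the start. The share over all pairs of entries with such a lead was not counted. NONMMUG043876 to NONMMUG043878 ran over 3 numbers with between 4.01 and 35.8 RPKM at 6 months and at most 2.21 elsewhere. NONMMUG027217 and NONMMUG027218 reached 89.3 and 181 RPKM at 6 months, with at most 3.25 at 3 weeks and 0.342 at E14. NONMMUG023934 and NONMMUG023935 ran together at 3 weeks instead, between 95.9 and 649 RPKM, and kept a part of that level at E18, between 6.40 and 54.1 RPKM, with at most 4.33 at 6 months. The pair NONMMUG042009 and NONMMUG042010 had 19.2 and 32.5 RPKM at 3 weeks and at most 2.61 in the other libraries. How many of these pairs overlap was not tested.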
